A study of Mus musculus with 20 samples.

Results

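Cells that carried much Meis1 RNA were compared with cells that carried little, inside the same libraries, in mouse retinal explants electroporated with a MEIS1 construct. The cells were progenitors and neurogenic cells, as the deposited annotation names them, with at least 2000 unique molecular identifiers (UMIs, 1 per captured transcript) in the 4 MEIS1 libraries. In each library and cell type the groups were defined by Meis1 itself: cells were ranked by the share of their UMIs that came from Meis1 and cut into 3 groups of equal size, of which the top is called Meis1-rich and the bottom Meis1-poor. This gave 576 rich and 577 poor progenitors and 379 rich and 379 poor neurogenic cells. Together these are 1911 of the 2863 progenitors and neurogenic cells that passed the depth limit in these libraries, and of 79009 cells in the whole study. The same ranking in the 8 GFP control libraries gave 9000 rich and poor cells out of 12249 and served as the reference for sequencing depth and for the cells' own Meis1. In some controls the lower limit was 0, so all cells without a Meis1 UMI were poor and the groups were unequal. P2 GFP replicate 3 had 619 poor, 233 middle and 426 rich progenitors, the rich ones with a median of 2 Meis1 UMIs. There the split set cells with Meis1 UMIs against cells with none.

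The explants came from wild-type CD1 mice. The groups used here were P2 MEIS1 (2 libraries), P5 MEIS1 (2 libraries), P2 GFP (4 libraries) and P5 GFP (4 libraries), where P2 and P5 stand for postnatal day 2 and 5 in the age label, and all of them were cultured, electroporated and enriched for GFP-positive cells. The design text names pCAGIG as the vector, in which the broadly active CAG promoter drives an insert with GFP behind it on the same transcript, but it lists NR2F1 and NR2F2 inserts. It also gives 2 or 5 days as the time from treatment to collection. The treatment label of the P5 MEIS1 libraries reads MEIS2, against their titles; the titles were followed, and Meis1 was above the controls in all 4 MEIS1 libraries (below). How many animals went into a library is not given in the sources used here, so p-values measure the spread between libraries. In the main gene tests this spread was estimated over MEIS1 and GFP libraries together, and most of these were controls. The p-values and standard errors of the MEIS1 split therefore rest largely on the spread among control libraries. The number of genes called in a fit of the MEIS1 libraries alone is given below.

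MEIS1 is a transcription factor of the TALE homeodomain class that binds DNA together with PBX proteins, and the PKNOX (PREP) proteins are close relatives that also pair with PBX. MEIS factors are expressed in retinal progenitors, where they are known for keeping eye-field genes such as Pax6 active. Late progenitors divide and leave the cycle as rods, bipolar cells or Müller glia. The neurons among these pass through a neurogenic state marked by proneural factors such as Neurog2.

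The ranking used Meis1, so the levels of Meis1, and of GFP, which follows it, are a description only. In plain CPM (a gene's count per 1000000 UMIs of the summed cells), Meis1 went from 698 in poor to 5095 in rich progenitors and from 575 to 4296 in the P2 libraries, and from 599 to 8667 and from 391 to 7355 in the P5 libraries. A poor progenitor had a median of 8 to 12 Meis1 UMIs and a rich one a median of 47.5 to 131.5. In neurogenic cells the levels went from 731 to 5613 and from 649 to 5030 at P2 and from 252 to 4771 and from 248 to 4896 at P5. Poor cells held Meis1 UMIs too: in poor progenitors its level lay above that in the poor progenitors of all 8 controls (0 to 104), and within or above the range of the rich control progenitors (334 to 639). Free RNA in droplets can add UMIs to cells that do not make a transcript. Meis1 ranged from 541 to 3750 plain CPM in the annotated cell types of the MEIS1 libraries, highest in the progenitors of P5 MEIS1 replicate 1. Bipolar cells were among them (946 and 991 at P5). The part of free RNA in the UMIs of poor cells was not tested. The rank limits fell in a continuum. In P2 MEIS1 replicate 1 the highest poor progenitor had 11.36 and the next cell 11.39 Meis1 UMIs per 10000, and the lowest rich progenitor had 24.63 against 24.58 just below it.

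All 79009 cells of the study held at least 1 GFP UMI, so the rankings by GFP hold no cell without one. GFP moved with Meis1 in the MEIS1 libraries. It went from 2710 to 16881 and from 731 to 4915 plain CPM in P2 progenitors and from 1810 to 26571 and from 604 to 15309 in P5 progenitors. Across cells within a library, the Spearman correlation of the Meis1 and GFP shares was 0.75 to 0.91 in the 8 MEIS1 library and cell type pairs and -0.17 to 0.04 in the 16 control pairs, where the shares come from the same UMIs. Between 72.3% and 84.1% of the rich cells also stood among the top GFP group of their library. In control progenitors GFP was lower in the rich cells of 7 of 8 libraries. A ranking by Meis1 in the MEIS1 libraries was thus also largely a ranking by GFP, and in the controls it was not. The results below are set beside the control split by Meis1 and, where it bears on them, a split by GFP.

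**Figure D1:**
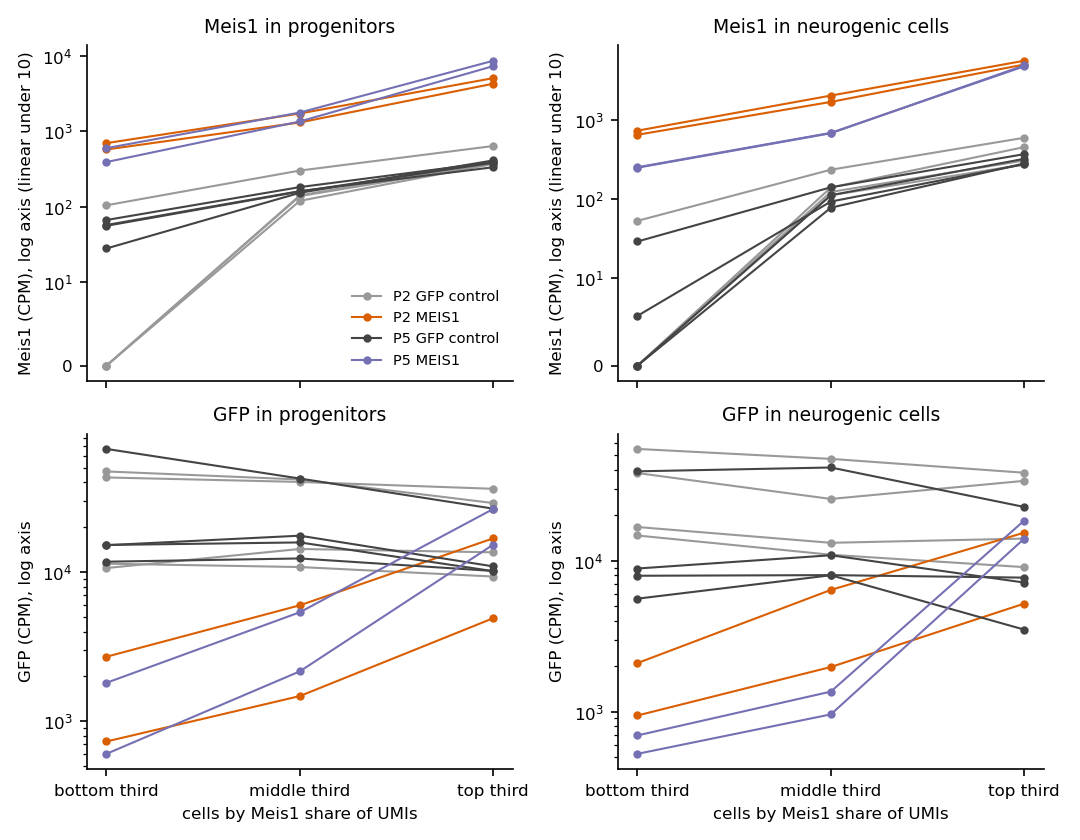
Meis1 (top) and GFP (bottom) in the poor, middle and rich cells of each library, as plain CPM on a log axis (for Meis1, linear under 10), for progenitors (left) and neurogenic cells (right). Each line is 1 library; orange and purple are the P2 and P5 MEIS1 libraries, light and dark grey the P2 and P5 GFP controls. GFP climbs with Meis1 in the 4 MEIS1 libraries. In the controls it is lower in rich than in poor cells, except in the progenitors of P2 GFP replicate 2 (10666 in poor and 13601 in rich cells).

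Rich cells were slightly deeper than poor ones, and some marker sums differed between them. Rich progenitors had 1.06 to 1.16 times the median UMIs of poor ones (higher in 4 of 4 libraries; 0.88 to 1.20 in the controls, higher in 4 of 8). Rich neurogenic cells had 1.05 to 1.22 times the median UMIs (4 of 4; exact sign-flip permutation test, two-sided, p = 0.125, the smallest that 4 pairs allow), and in the controls 0.956 to 1.27 times (higher in 7 of 8; exact sign-flip permutation p = 0.0469). The summed groups held between 428988 and 3683705 UMIs. The progenitor markers (10 genes such as Sox2, Pax6 and Rax) summed to a median of 2900 plain CPM in poor and 2775 in rich progenitors, with no marker at 0 (higher in 1 of 4 libraries; 2100 and 2333 in the controls, higher in 5 of 8). The neurogenic markers summed to a median of 1361 in poor and 777 in rich progenitors (higher in 0 of 4 libraries; 1488 and 1164 in the controls, higher in 1 of 8). The rod markers summed to 165 and 71.9 (higher in 1 of 4; 145 and 219 in the controls, higher in 8 of 8). Microglial markers summed to a median of 14.9 and 20.3 and vascular markers to 530 and 548. Retinal ganglion cell markers summed to 17.1 and 9.61, with Pou4f2 at 0, and pigment epithelium markers to 20 and 18.4, with Rpe65 at 0. In neurogenic cells the Müller glia markers stood at a median of 1664 in poor and 3172 in rich cells (higher in 2 of 4 libraries; 1711 and 2258 in the controls, higher in 8 of 8). Their part in the gene results was not tested.

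Rich progenitors had less RNA of genes for mitosis, histones and neurogenesis, and more of Malat1, Adcy8 and Pknox1. Of 12957 genes tested, 908 (7.01%) differed between rich and poor progenitors at an adjusted p under 0.05 (edgeR's quasi-likelihood test with the library as a block, Benjamini-Hochberg adjustment), 448 higher (3.46%) and 460 lower (3.55%) in rich cells. The control split called 2008 genes (15.5%), 814 higher (6.28%) and 1194 lower (9.22%), in 8 libraries with more cells. For 346 genes (2.67%), 135 higher (1.04%) and 211 lower (1.63%), the split itself differed between MEIS1 and control libraries. The median fold change over all genes was -0.012 on the log2 scale in the MEIS1 libraries and 0.0045 in the controls. Without TMM scaling, by library totals alone, the median difference moved to -0.106 and its calls from 135 higher and 211 lower to 20 higher and 295 lower, and the control split from 814 and 1194 to 1674 and 543. The 908 calls fell to 187 without P5 MEIS1 replicate 2 and were 573 in a fit of the MEIS1 libraries alone.

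Of the lists plotted below, G2 and mitosis had the largest median change. None of the 42 measured members was higher and 38 were lower in rich progenitors, where 3.55% of all genes were lower. Their median log2 fold change was -2.20 (-2.09 when genes at 0 in all rich cells of an age are set to the floor of 3 counts). In the control split 13 were lower (median -0.23), against 9.22% of all genes. For 33 the difference between MEIS1 and control libraries passed the test, against 2.67% of all genes. The summed level of the list went from 9368 to 4660 and from 10957 to 7001 plain CPM in the P2 libraries. In the P5 libraries it went from 530 to 214 and from 1240 to 231. The ratio of rich to poor was 0.186 to 0.639 in the MEIS1 libraries and 0.458 to 1.34 in the controls, so the groups of libraries overlapped. At P2 alone 32 members were lower (median -0.81) against 357 of 12957 genes (2.76%), and at P5 alone 31 (median -3.58, -3.49 with the floor) against 200 genes (1.54%). In summed counts, fewer dividing cells and less of this RNA per dividing cell cannot be told apart.

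Cdk1, the kinase that drives entry into mitosis, went from 228 to 154 and from 274 to 187 TMM-scaled CPM (the scale of all gene levels from here on) at P2, and from 15.9 to 3.34 and from 38.1 to 2.57 CPM at P5. It was lower in rich cells in 4 of 4 libraries, although the P2 rich cells still had far more than the P5 poor cells. Its log2 fold change was -2.07 ± 0.22 (SE; adjusted p = 1.29e-07, edgeR), against -0.49 in the controls, and the difference was -1.58 ± 0.26 (adjusted p = 0.00029, edgeR). Top2a, the topoisomerase that untangles replicated chromosomes, went from 460 to 361 and from 823 to 603 CPM at P2 and from 35.2 to 2.23 and from 56.3 to 3.43 CPM at P5. Its fold change was -2.21 ± 0.23 in all (adjusted p = 1.29e-07, edgeR) but -0.40 at P2 alone (adjusted p = 0.0856, edgeR). Hmgb2, a chromatin protein abundant in dividing cells, went from 2518 to 1365 and from 3540 to 2137 CPM at P2 and from 187 to 66.9 and from 510 to 111 CPM at P5. Its log2 fold change was -1.42 ± 0.09 (adjusted p = 1.6e-11, edgeR), against -0.37 in the controls, with a difference of -1.04 ± 0.11 (adjusted p = 6.09e-07, edgeR). In Cdk1 and Hmgb2 the middle cells of both P2 libraries lay between the poor and the rich ones.

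Several mitotic genes were at 0 in the rich P5 progenitors, so that their fitted fold changes have no fixed size. Cdca3, a trigger of mitotic entry, had 8 and 78 UMIs in the poor cells of the P5 libraries and 0 in both rich groups. With the 0 set to the floor of 3 counts over both libraries, this is 31-fold lower. Such folds take the poor count as it stands and are no confidence limit. At P2 it went from 135 to 45.4 and from 128 to 87.4 CPM (log2 fold change -0.98 ± 0.17, adjusted p = 0.000409, edgeR). Pbk, a mitotic kinase, had 6 and 100 UMIs against 0 and 0 at P5 (38.2-fold lower with the floor). At P2 it went from 124 to 82.9 and from 159 to 106 CPM (-0.58 ± 0.13, adjusted p = 0.0048, edgeR). Ccnb1, the mitotic cyclin, went from 189 to 71 and from 174 to 87.4 CPM at P2 (-1.19 ± 0.18, adjusted p = 8.76e-05, edgeR) and from 5.67 to 0 and from 11.8 to 0.286 CPM at P5.

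Promoters of these genes are shown because the list moved together. Many genes of G2 and mitosis carry the cell cycle genes homology region, a short element with the core TTTGAA at which repressor complexes hold such genes off in resting cells. In the RefSeq promoter table (GRCm38.p6; from 250 bases before to 50 after each start site), 26 of the 36 list members with a promoter (72.2%) had this core on either strand. The share was 17.9% of all 32851 promoters, 14.2% of 9772 tested progenitor genes, 30.1% of 336 genes lower and 10.2% of 343 genes higher in rich progenitors. The MEIS core TGACAG, searched the same way, stood in 19.2% of all promoters, in 18.5% of the genes lower and 18.4% of the genes higher in rich progenitors, and in 5 of 36 list members (13.9%). A match is a run of letters and not a bound site. In the 120-base windows below, read 5′ to 3′ on the gene's strand, capitals mark the TTTGAA core or its reverse complement in the first 3 and that of TGACAG in the last, a second stretch of the Top2a promoter whose own TTTGAA is left in lower case.
Top2a, chr11:99024190-99024309, minus strand: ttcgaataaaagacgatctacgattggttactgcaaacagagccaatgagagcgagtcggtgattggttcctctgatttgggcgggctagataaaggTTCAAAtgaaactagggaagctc
Cdk1, chr10:69352913-69353032, minus strand: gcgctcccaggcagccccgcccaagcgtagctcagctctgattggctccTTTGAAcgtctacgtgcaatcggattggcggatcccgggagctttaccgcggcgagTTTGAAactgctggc
Hmgb2, chr8:57511723-57511842, plus strand: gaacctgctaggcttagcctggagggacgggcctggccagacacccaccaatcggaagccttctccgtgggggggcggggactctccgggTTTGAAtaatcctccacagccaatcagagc
Top2a, chr11:99024320-99024439, minus strand: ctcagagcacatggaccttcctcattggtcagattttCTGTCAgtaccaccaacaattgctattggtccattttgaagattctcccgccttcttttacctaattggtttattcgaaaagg
The nearest core began 23 bases before the start site in Top2a, 15 in Cdk1 and 30 in Hmgb2, and the MEIS core of Top2a began 213 bases before it. Top2a thus held both cores, while TGACAG was not among the letters of the Cdk1 and Hmgb2 promoters in the table. All 3 genes were lower in rich progenitors.

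Many replication histones were lower, with larger changes at P5. Of 58 measured replication histone genes 42 were lower, against 3.55% of all genes, and none higher (median -1.60). In the controls 1 was lower, against 9.22% of all genes. For 31 the split differed between MEIS1 and control libraries, against 2.67% of all genes. At P2 alone 3 were lower, against 2.76% of all genes. For 30 the split was more negative at P5 than at P2. Hist1h2ap, a core histone gene copied in S phase, went from 529 to 561 and from 3716 to 2859 CPM at P2, and from 240 to 21.2 and from 841 to 42.9 CPM at P5. The P2 libraries thus lay on both sides of no change, and the P5 libraries fell by 4.17 on the log2 scale. Because histone genes are near copies of each other and are poorly captured by poly(A) priming, single members are uncertain. Of 33 S phase genes 10 were lower, against 3.55% of all genes, and none higher (median -0.41, and 0.047 at P2 alone). The split of 3 differed between the ages, against 1.11% of all genes. Rrm2, which makes the deoxynucleotides, went from 83.4 to 81.1 and from 76.4 to 60.9 CPM at P2 and from 15.9 to 1.11 and from 26.9 to 1.14 CPM at P5.

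Counted cell by cell with the same genes, fewer rich progenitors were called cycling. A progenitor was called cycling with at least 20 UMIs of 75 S, G2 and mitosis genes per 10000, a limit set after seeing the data. The count reads the S phase and G2 and mitosis lists given above, so less of this RNA per cell would lower it too, and it does not tell that apart from fewer dividing cells. By this count 82 of 135 poor and 47 of 135 rich progenitors were cycling in P2 MEIS1 replicate 1 (60.7% and 34.8%), and 149 and 98 of 244 in replicate 2 (61.1% and 40.2%). At P5 there were 3 of 41 poor and 0 of 40 rich cells in replicate 1 (7.32%, and 0% with an exact 95% binomial upper limit of 8.81%), and 14 and 2 of 157 in replicate 2 (8.92% and 1.27%). The P5 fold changes of the cell cycle genes thus rest on 17 cycling poor cells. The mean change was -15.4 percentage points (lower in 4 of 4 libraries, SD 9.43), against 0.481 in the controls (SD 1.70, lower in 3 of 8). The control libraries ranged from -1.47 to 3.34 points. Among them P5 GFP replicate 3 stood apart in its level, with 25.6% of poor and 24.8% of rich progenitors called cycling against 3.23% to 6.15% in the other P5 controls, and without it the control split called 1199 genes in place of 2008. P2 GFP replicate 4 was low for its age, at 11.2% of poor and 10.7% of rich progenitors against 34.1% to 56.8% in the other P2 controls. Between MEIS1 and control libraries the difference of these changes was -15.9 points (exact permutation of the 12 libraries, two-sided, p = 0.0020202, the smallest it allows). With each cell thinned to 2000 UMIs the difference was -11.2 points (exact permutation p = 0.0162). Thinned, the P2 MEIS1 libraries had 62.2% of poor and 43.0% of rich cells called cycling and 64.3% and 45.5%, and the P5 MEIS1 libraries 9.76% and 7.5% and 9.55% and 7.64%. Thinning thus left the P2 drop large and made the P5 drop small.

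A drop in cycling progenitors also appeared in the controls when cells were ranked by GFP. In the GFP libraries the top GFP group had 18.7 percentage points fewer cycling progenitors than the bottom one (lower in 8 of 8 libraries; exact sign-flip permutation p = 0.0078125, the smallest 8 pairs allow). In the MEIS1 libraries the ranking by GFP gave -14.5 points (lower in 4 of 4). The difference between them was 4.18 points (exact permutation p = 0.513). Among the genes, the ranking by GFP called 32 of 42 G2 and mitosis genes lower in the MEIS1 libraries (median -2.18; 1.62% of all genes were lower) and 42 of 42 in the controls (median -1.78; 7.88% of all genes), and none had a different split between the treatments (median difference -0.31). Over all 12807 genes of that fit, 313 (2.44%) were called in the MEIS1 libraries, 1868 (14.6%) in the controls and 7 (0.0547%) for the difference. Those 7, named after their values were seen, were Meis1 itself, Pknox1, Cxcl14, Sag and Agbl4, higher in the MEIS1 libraries, and Atp5s and Gm28376, lower. Otx2, Neurod1, Car14, Apoe and Adcy8, whose Meis1 splits differed between the treatments (below), were not among them. In the MEIS1 libraries the rankings by Meis1 and by GFP overlapped without being the same: of 907 genes called by Meis1 and tested by GFP, 896 had the same sign and 268 were called. The parts of Meis1 and GFP in the drop of cycling were not tested there.

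**Figure D2:**
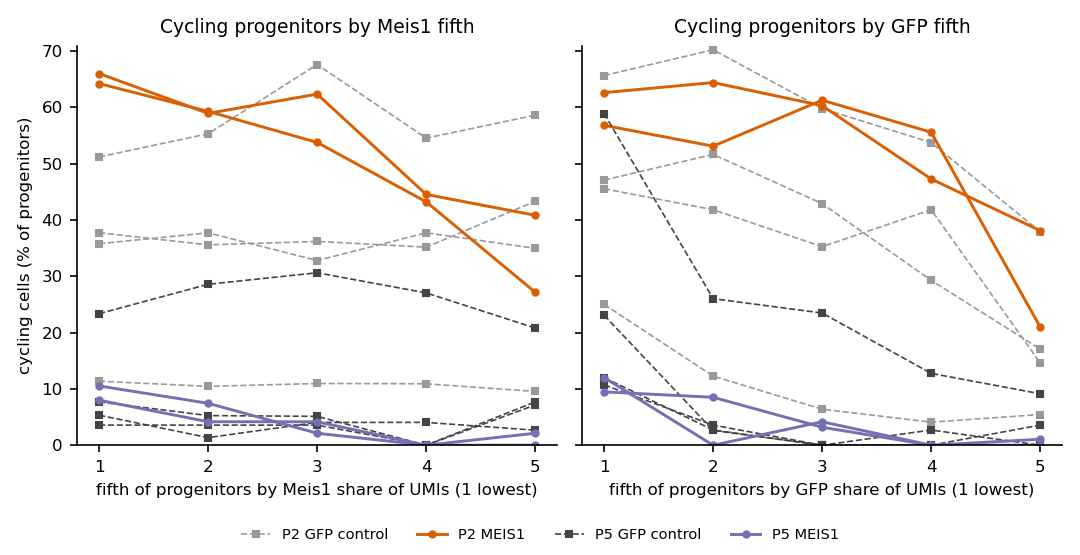
Share of progenitors called cycling (percent) in 5 equal groups of cells ranked by Meis1 share (left) or GFP share (right), 1 line per library; circles are MEIS1 and squares GFP libraries, orange and light grey P2, purple and dark grey P5. By Meis1 the 4 MEIS1 libraries fall from the lowest to the highest group (64.2% to 27.2% in P2 MEIS1 replicate 1) while the controls go both ways by smaller amounts (37.7% to 43.3% in P2 GFP replicate 1, 23.4% to 20.8% in P5 GFP replicate 3), and by GFP all 12 libraries fall.

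Many genes of the neurogenic state were lower in rich progenitors. Of 28 measured members 14 were lower, against 3.55% of all genes, and none higher (median -1.11, -1.04 with the floor). In the control split 11 were also lower (median -0.41), against 9.22% of all genes. The difference passed for 3 of the 28, Otx2 and Neurod1 among them, and for 2.67% of all genes. Otx2, a photoreceptor and bipolar fate factor, went from 214 to 78.2 and from 119 to 96.7 CPM at P2 and from 27.2 to 10 and from 26.9 to 2.86 CPM at P5. It was lower in 4 of 4 MEIS1 libraries and in 5 of 8 controls, with log2 fold changes of -1.73 ± 0.26 (adjusted p = 3.48e-05, edgeR) and -0.12. Its split differed from the controls by -1.60 ± 0.30 (adjusted p = 0.00155, edgeR). Neurod1, a bHLH factor of differentiating neurons, differed from them by -1.45 (adjusted p = 0.0449, edgeR).

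Other neurogenic genes fell in the controls as well. Neurog2, a proneural factor, went from 90.5 to 24.9 and from 70.5 to 42.8 CPM at P2 and from 1 and 27 UMIs to 0 and 0 at P5 (10.1-fold lower with the floor). Its log2 fold change was -1.21 ± 0.20 at P2 (adjusted p = 0.000235, edgeR), against -1.27 ± 0.14 in the controls (adjusted p = 9.67e-07, edgeR). Hes6, a transient marker of cells leaving the progenitor state, went from 646 to 357 and from 770 to 487 CPM at P2 and from 90.8 to 63.5 and from 216 to 70.6 CPM at P5. Its fold change was -1.05 ± 0.12 (adjusted p = 5.65e-07, edgeR) against -0.64 in the controls, a difference that did not pass (adjusted p = 0.169, edgeR). The calls of Cdk1, Hes6, Otx2 and Neurod1 did not pass without P5 MEIS1 replicate 2 (log2 fold changes of -1.40, -0.64, -1.15 and -1.06), where a single P5 MEIS1 library was left.

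The Notch pathway held 8 lower and 1 higher of 28 genes (median 0.022), against 3.55% and 3.46% of all genes. In the controls 6 were lower and 3 higher, against 9.22% and 6.28% of all genes. The lower ones were the ligands Dll1, Dll3 and Dll4, the modifier Mfng, and Hes5, Hes6, Id1 and Id2. Several of these calls rested on single libraries: without P5 MEIS1 replicate 2 the calls of Dll1, Dll3 and Mfng were lost, with log2 fold changes of 0.60, -0.47 and -1.11, and Hes5 was lost without P5 MEIS1 replicate 1 (-0.31). Id2 was lost in 5 of the 12 fits that leave out 1 library (-0.52 to -0.24) and Dll4 in 7. Dll4 and Dll3 had 8 and 6 UMIs in poor and 0 in rich P5 progenitors, which is 2.89-fold and 2.16-fold lower with the floor. These counts are few, and the fitted values of both genes have no fixed size. Hes5, an effector of Notch, went from 1245 to 1469 and from 1777 to 1857 CPM at P2, and from 1972 to 789 and from 1684 to 987 CPM at P5. It was therefore higher in both P2 and lower in both P5 libraries, and the P5 less P2 difference was -1.17 (adjusted p = 0.00254, edgeR). In all, 144 genes (1.11%) had a split that differed between the ages, 10 more positive and 134 more negative at P5, a number that fell to 23 without P5 MEIS1 replicate 2. Maml2, a Notch coactivator, was the one that rose, with log2 fold changes of 0.39 ± 0.08 (adjusted p = 0.00118, edgeR) and 0.30 in the controls.

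**Figure D3:**
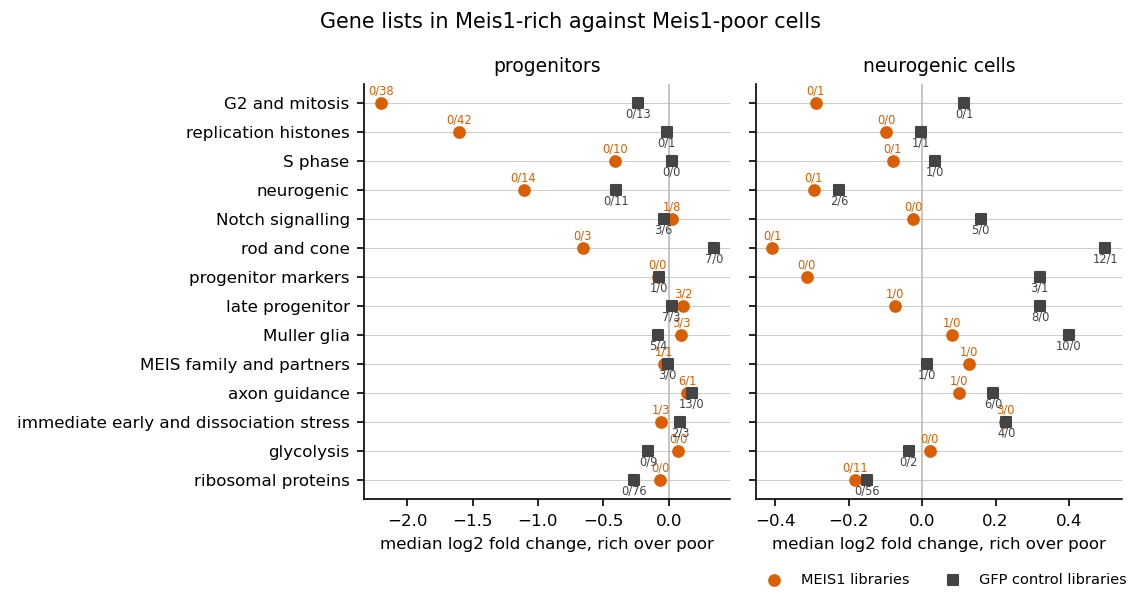
Median log2 fold change of rich over poor cells for each gene list, in progenitors (left) and neurogenic cells (right); circles are the MEIS1 and squares the GFP control libraries, and the small numbers give members called higher and lower. The G2 and mitosis list and the replication histones stand furthest from 0 in MEIS1 progenitors, and the rod and cone list has opposite signs in MEIS1 and control libraries in both cell types.

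Müller glia and late progenitor genes went both ways. Of 24 Müller glia genes 3 were higher and 3 lower (median 0.094), and of 18 late progenitor genes 3 were higher and 2 lower. Over all genes 3.46% were higher and 3.55% lower. In the controls 5 Müller glia genes were higher and 4 lower, against 6.28% and 9.22% of all genes. The lower Müller glia members were Id1, an inhibitor of bHLH factors (log2 fold change -1.07), Spc25, a kinetochore protein (-0.70), and Hes5 (-0.44). The higher ones were Rlbp1, Apoe and the glutamate transporter Slc1a3 (0.25). Without P5 MEIS1 replicate 2 the calls of Spc25 (-1.26) and Slc1a3 were lost, and that of Slc1a3 also without P2 MEIS1 replicate 2. Car14, a membrane carbonic anhydrase and a member of the late progenitor list, went from 50.6 to 84.3 and from 29.2 to 61.7 CPM at P2, and from 307 to 309 and from 238 to 261 CPM at P5. Its log2 fold change was 0.90 at P2 and 0.08 at P5, ages that differed by -0.82 (adjusted p = 0.00569, edgeR), while the overall difference from the controls was 0.67 ± 0.10 (adjusted p = 7.85e-05, edgeR). Rlbp1, the retinaldehyde-binding protein of Müller glia, went from 257 to 384 and from 184 to 278 CPM at P2 and from 1589 to 1758 and from 1958 to 2044 CPM at P5. Apoe, a lipid carrier made by glia, went from 664 to 970 and from 774 to 1086 CPM at P2 and from 10562 to 11107 and from 8594 to 9768 CPM at P5, with a difference from the controls of 0.47 ± 0.06 (adjusted p = 1.07e-05, edgeR). Levels of Car14, Rlbp1 and Apoe were higher in the rich cells of 4 of 4 libraries, and in both groups the P5 libraries lay above the P2 libraries. Of the progenitor markers, whose sums are given above, Sox2 had 0.03, Pax6 0.01 and Ccnd1 -0.03.

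Pknox1, the PREP1 partner of PBX, was the member of the MEIS family and its partners that rose. It went from 62.4 to 82.2 and from 53.4 to 54.2 CPM in P2 progenitors, and from 18.1 to 46.8 and from 23.2 to 44.6 CPM at P5. Over both ages the log2 fold change was 0.63 ± 0.13 (adjusted p = 0.00142, edgeR), and without P5 MEIS1 replicate 2 it was 0.79 and did not pass (adjusted p = 0.0731, edgeR). It was 0.21 at P2 and 1.04 at P5, a difference that did not pass (adjusted p = 0.136, edgeR). In the 8 controls Pknox1 ranged from 17.7 to 37 CPM in poor and from 10.7 to 43.9 CPM in rich progenitors, a fold change of -0.02. The difference was 0.65 ± 0.16 (adjusted p = 0.023, edgeR), and 1.11 with cells ranked by GFP (adjusted p = 0.0266, edgeR). Pbx4 was lower (-0.82 ± 0.20, adjusted p = 0.0109, edgeR), a call lost without P2 MEIS1 replicate 1 or P5 MEIS1 replicate 2 (log2 fold changes of -0.78 and -0.53). Meis2 had a fold change of -0.01 in MEIS1 libraries, where in the controls it was higher in the cells rich in Meis1 (0.52 ± 0.10, adjusted p = 0.000274, edgeR), and the difference of -0.53 did not pass (adjusted p = 0.0874, edgeR). In all, 1 of 10 family genes was called higher and 1 lower, against 3.46% and 3.55% of all genes.

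Among the genes with the largest rises, Adcy8, an adenylyl cyclase, went from 16.2 to 24.9 and from 9.73 to 24 CPM at P2 and from 9.08 to 25.6 and from 8.05 to 30 CPM at P5. Its difference from the controls was 1.35 ± 0.26 (adjusted p = 0.00218, edgeR). Erbb4, a neuregulin receptor, went from 15.8 to 27.7 and from 13.9 to 23 CPM at P2 and from 6.81 to 26.8 and from 7.12 to 17.4 CPM at P5 (difference 0.91, adjusted p = 0.0488, edgeR). Both were higher in every MEIS1 library, at low levels. Sh2d4b, an SH2-domain adaptor, went from 15.8 to 37.8 and from 10 to 18.4 CPM at P2 and from 15.9 to 34.6 and from 26.3 to 37.4 CPM at P5 (difference 0.99 ± 0.18, adjusted p = 0.00125, edgeR). Tmem132b, a membrane protein, went from 9.48 to 11.9 and from 7.08 to 8.55 CPM at P2 and from 29.5 to 91.4 and from 35.6 to 123 CPM at P5, and the P5 less P2 difference of 1.44 did not pass (adjusted p = 0.117, edgeR). Borcs5, a lysosome-positioning subunit, and Maff, a small MAF factor, differed from the controls by 1.03 ± 0.21 and 1.22. These differences are between rankings by Meis1. Adcy8, Erbb4, Sh2d4b, Tmem132b, Borcs5 and Maff were not among the 7 genes that differed between the treatments with cells ranked by GFP. The calls of Tmem132b and Borcs5 in the MEIS1 libraries were lost without P5 MEIS1 replicate 2 (0.96 and 0.92), that of Borcs5 also without P2 MEIS1 replicate 1 (0.60), and that of Maff without P2 MEIS1 replicate 2 (0.77).

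Of 33 axon guidance genes 6 were higher and 1 lower in MEIS1 progenitors (median 0.14, and -0.068 at P5 alone), against 3.46% and 3.55% of all genes. In the controls 13 were higher and none lower (median 0.18), against 6.28% and 9.22% of all genes. Unc5c, a netrin receptor, went from 132 to 228 and from 96.7 to 154 CPM at P2 and from 424 to 647 and from 453 to 626 CPM at P5, with log2 fold changes of 0.63 ± 0.06 (adjusted p = 7.15e-08, edgeR) and 0.54 ± 0.05 in the controls. Dcc, another netrin receptor, went from 168 to 46.5 and from 109 to 169 CPM at P2 and from 106 to 14.5 and from 12.7 to 2 CPM at P5, so that 1 of the 4 libraries went the other way; its call was lost without either P5 MEIS1 library. None of 79 ribosomal protein genes was called in the MEIS1 libraries by edgeR (17 lower at an unadjusted p under 0.05, and 4 called lower by DESeq2). In the controls 76 were lower in the rich cells, against 9.22% of all genes. For 30 the difference passed, all more positive in the MEIS1 libraries, against 1.04% of all genes. This contrast depended on the scaling. By library totals alone 16 were lower in the MEIS1 libraries and 65 in the controls, and the difference passed for 0 (15 at an unadjusted p under 0.05). The ribosomal protein share of all UMIs was lower in the rich progenitors of 4 of 4 MEIS1 libraries (10.9% to 15.6% in poor and 9.83% to 15.1% in rich cells) and of 8 of 8 controls.

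Malat1, a nuclear noncoding RNA, differed between the treatments in both cell types. In progenitors it went from 12391 to 20022 and from 16888 to 22634 CPM at P2 and from 37374 to 48256 and from 34232 to 43554 CPM at P5 (log2 fold change 0.46 ± 0.04, adjusted p = 6.05e-09, edgeR; -0.02 in the controls). In neurogenic cells it went from 19998 to 29245 and from 23546 to 34755 CPM at P2 and from 29508 to 44176 and from 31567 to 42247 CPM at P5 (0.53 ± 0.03, adjusted p = 6.27e-10, edgeR; -0.01 in the controls). It was higher in the rich cells of every MEIS1 library. Ranked by GFP, progenitors had 0.30 in the MEIS1 libraries and 0.28 in the controls. The median percent of mitochondrial UMIs was higher in the rich progenitors of 2 of 4 libraries and in the rich neurogenic cells of 1 of 4.

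With cycling cells left out, an alternative chosen after seeing the data, fewer genes were called. In non-cycling progenitors 184 genes differed (1.63%; 127 higher, 57 lower), 1600 in the controls (14.2%) and 54 for the difference (0.478%). Of the 446 genes called higher in all progenitors, Meis1 and GFP left out, 440 were tested here, 438 had the same sign and 117 were called. Of the 460 called lower, 328 were tested, 304 had the same sign and 24 were called. The selection reads the S phase and G2 and mitosis genes, so what those genes do in these cells is no test of them. Hes6 was lower (-0.43, adjusted p = 0.0134, edgeR), Otx2 differed from the controls (-1.48, adjusted p = 0.0126, edgeR), and Pknox1 (0.82, adjusted p = 0.00614, edgeR), Adcy8 (1.43, adjusted p = 0.000124, edgeR) and Sh2d4b (0.96, adjusted p = 0.00154, edgeR) were higher.

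Neurogenic cells showed fewer differences, with lower Nr2e3 and higher Pknox1, Atg4a and Fosb among them. Of 11500 genes tested, 64 (0.557%) differed, 31 higher (0.27%) and 33 lower (0.287%), against 835 (7.26%) in the controls, 427 higher (3.71%) and 408 lower (3.55%), and 31 (0.27%) for the difference, 23 of them lower (0.2%). Without TMM scaling the split was 35 higher and 133 lower, and the difference 7 higher and 63 lower. A fit of the P2 libraries alone called 471 genes and one of the P5 libraries alone 6. The 64 calls fell to 3 without P2 MEIS1 replicate 1 and rose to 183 without P5 GFP replicate 2, and ranking by GFP called 3 genes (0.0269%) in the MEIS1 libraries and 1 (0.00896%) for the difference. Cycling neurogenic cells were few: 5 and 8 poor against 3 and 2 rich cells at P2, and 0 and 6 poor against 0 and 0 rich cells at P5. These counts moved with depth: thinned to 2000 UMIs they were 25 and 18 poor against 10 and 15 rich cells at P2, and 1 and 8 against 1 and 8 at P5.

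A few rod and cone genes had a split that differed between the treatments. Of 25 members 1, Nr2e3, was called lower in the MEIS1 libraries (median -0.41), against 0.287% of all genes. In the controls 12 were higher and 1 lower, against 3.71% and 3.55% of all genes. For 4, Nr2e3, Samd11, Pdc and Tulp1, the difference passed (median difference -1.16 over the list), against 0.27% of all genes. The summed level of the list went from 2954 to 2879 and from 2081 to 2036 plain CPM at P2. At P5 it went from 2772 to 1646 and from 1157 to 777. It was nearly level at P2, lower in 4 of 4 MEIS1 libraries and higher in 6 of 8 controls. Nr2e3, the nuclear receptor that fixes rod fate, went from 64.2 to 19.8 and from 20.5 to 5.3 CPM at P2 and from 107 to 28.7 and from 12.7 to 5.06 CPM at P5. In the 8 controls it ranged from 10 to 31.5 CPM in poor and from 33.4 to 72.9 CPM in rich cells, higher in 8 of 8. The log2 fold changes were -1.71 ± 0.21 (adjusted p = 0.000322, edgeR) and 1.20 ± 0.11 (adjusted p = 5.12e-06, edgeR), and the difference was -2.91 ± 0.24 (adjusted p = 3.78e-07, edgeR). In P2 MEIS1 replicate 2 the middle cells had 46.7 CPM, more than both the poor and the rich cells, and ranked by GFP the fold change was -0.81 and did not pass (adjusted p = 0.696, edgeR).

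Pdc and Prom1 also differed from the controls. Pdc, a rod phosphoprotein, went from 115 to 79.1 and from 48 to 13.6 CPM at P2 and from 221 to 86.1 and from 25.4 to 13.3 CPM at P5. It was lower in all 4, short of the threshold (-1.04 ± 0.24, adjusted p = 0.0519, edgeR), but higher in 8 of 8 controls, with a difference of -2.02 ± 0.27 (adjusted p = 0.000957, edgeR). Prom1, a membrane protein of outer segment discs that is not on the list, went from 55.9 to 43.1 and from 46.4 to 31 CPM at P2 and from 44.7 to 19.1 and from 32.7 to 9.19 CPM at P5 (difference -1.46 ± 0.22, adjusted p = 0.00404, edgeR). Upstream factors did not pass: Otx2 had -0.30 (adjusted p = 0.146, edgeR), Crx -0.12 and Neurod1 -0.27. The rod markers fixed for the check of cell identity summed to a median of 483 plain CPM in poor and 416 in rich cells (higher in 2 of 4 libraries). In progenitors 3 of 24 rod and cone genes were lower, Otx2, Crx and Rom1, against 3.55% of all genes. In the control progenitors 7 were higher, against 6.28% of all genes. For 7 the difference passed, all lower in the MEIS1 libraries, against 1.63% of all genes. The calls of Crx and Rom1 were each lost without P2 MEIS1 replicate 1, P5 MEIS1 replicate 1 or P5 MEIS1 replicate 2, with log2 fold changes of -2.08 to -0.91 and -1.52 to -0.61 over the 12 fits that leave out 1 library.

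Insm1, a zinc-finger factor of cells in their last divisions, went from 296 to 186 and from 146 to 136 CPM at P2 and from 64.8 to 32.5 and from 39.6 to 22.1 CPM at P5 (-0.65 ± 0.12, adjusted p = 0.0176, edgeR). E2f1, the S phase activator, went from 65.1 to 14.1 and from 47.2 to 28 CPM at P2 and from 46.9 to 30.6 and from 35.2 to 23.9 CPM at P5, with a difference from the controls of -1.40 (adjusted p = 0.00658, edgeR). H1f0, a linker histone, went from 180 to 109 and from 149 to 137 CPM at P2 and from 143 to 26.8 and from 45.4 to 26.7 CPM at P5. All 3 were lower in 4 of 4 libraries, by amounts that varied widely between them. Hes1, a Notch effector, had -0.92 (adjusted p = 0.0601, edgeR), and its difference from the controls passed (-1.52, adjusted p = 0.00868, edgeR).

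Pknox1 was higher in rich neurogenic cells too. It went from 45 to 92.6 and from 39.4 to 62.1 CPM at P2 and from 33.5 to 57.4 and from 31.8 to 42.3 CPM at P5. It was higher in 4 of 4 libraries (0.69 ± 0.15, adjusted p = 0.0415, edgeR), against 0.02 in the controls, and the difference of 0.67 did not pass (adjusted p = 0.17, edgeR). Atg4a, an autophagy protease, went from 31.7 to 93.3 and from 22.8 to 56 CPM at P2 and from 33.5 to 93.8 and from 37.1 to 75.8 CPM at P5, so that all 4 rich groups lay above all 4 poor groups. Its fold change was 1.29 ± 0.24 (adjusted p = 0.0153, edgeR) against 0.07 in the controls, with a difference of 1.23 that did not pass (adjusted p = 0.077, edgeR). In progenitors Atg4a also rose, by 0.98 ± 0.18 (adjusted p = 0.000532, edgeR) and by 0.43 in the controls, a MEIS1 call lost without P5 MEIS1 replicate 2 (1.14).

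Of 25 immediate early and stress genes 3 were higher and none lower in neurogenic cells, where 0.27% of all genes were higher: Fosb (1.18 ± 0.20, adjusted p = 0.0117, edgeR), Egr1 (0.65) and Dnajb1 (0.54), and the control split had Fosb at 0.55 and Egr1 at 0.33. The summed level of the list was higher in the rich cells of 3 of 4 MEIS1 libraries (ratio of rich to poor 0.896 to 1.419). In the controls it was higher in 8 of 8 (1.005 to 1.226). Pak1, a kinase of the cytoskeleton, went from 22.5 to 43.1 and from 25.2 to 43.9 CPM at P2 and from 17.9 to 32.5 and from 10.7 to 25.7 CPM at P5. Apoe went from 184 to 206 and from 232 to 298 CPM at P2 and from 1271 to 3751 and from 2840 to 4238 CPM at P5 (0.65 ± 0.14, adjusted p = 0.0341, edgeR; 0.34 in the controls), beside the Müller glia markers given above. Abca1, a cholesterol exporter, rose at P2, from 75.1 to 196 and from 60.6 to 128 CPM, while at P5 it went from 174 to 193 and from 192 to 189 CPM (P5 less P2 difference -1.21, adjusted p = 0.00334, edgeR). Of 79 ribosomal protein genes 11 were lower (median -0.18), against 0.287% of all genes, and 56 in the controls, against 3.55% of all genes. By library totals alone 57 and 31 were lower. Over all genes the MEIS1 split also had more lower calls by library totals, as given above. Many of the calls in neurogenic cells were lost when 1 library was left out. Without P2 MEIS1 replicate 1, the calls of Nr2e3, Insm1, E2f1, H1f0, Atg4a, Fosb and Abca1 did not pass, with log2 fold changes of -1.80, -0.50, -0.67, -0.72, 1.22, 1.19 and 0.55, and neither did those of Prom1 and Dnajb1. Without P2 MEIS1 replicate 2 those of Atg4a, Fosb, Prom1 and Dnajb1 were lost, without P5 MEIS1 replicate 1 those of Insm1, H1f0 (-0.60) and Dnajb1, and without P5 MEIS1 replicate 2 those of Insm1, E2f1, Atg4a, Prom1 and Dnajb1. The calls of Pak1, Pknox1, Apoe and Egr1 were lost in 6, 9, 7 and 9 of the 12 fits, among them those without P2 MEIS1 replicate 1, P2 MEIS1 replicate 2, P5 MEIS1 replicate 1 or P2 GFP replicate 1, but stayed positive, at 0.87 to 1.06, 0.58 to 0.83, 0.42 to 0.92 and 0.48 to 0.90.

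**Figure D4:**
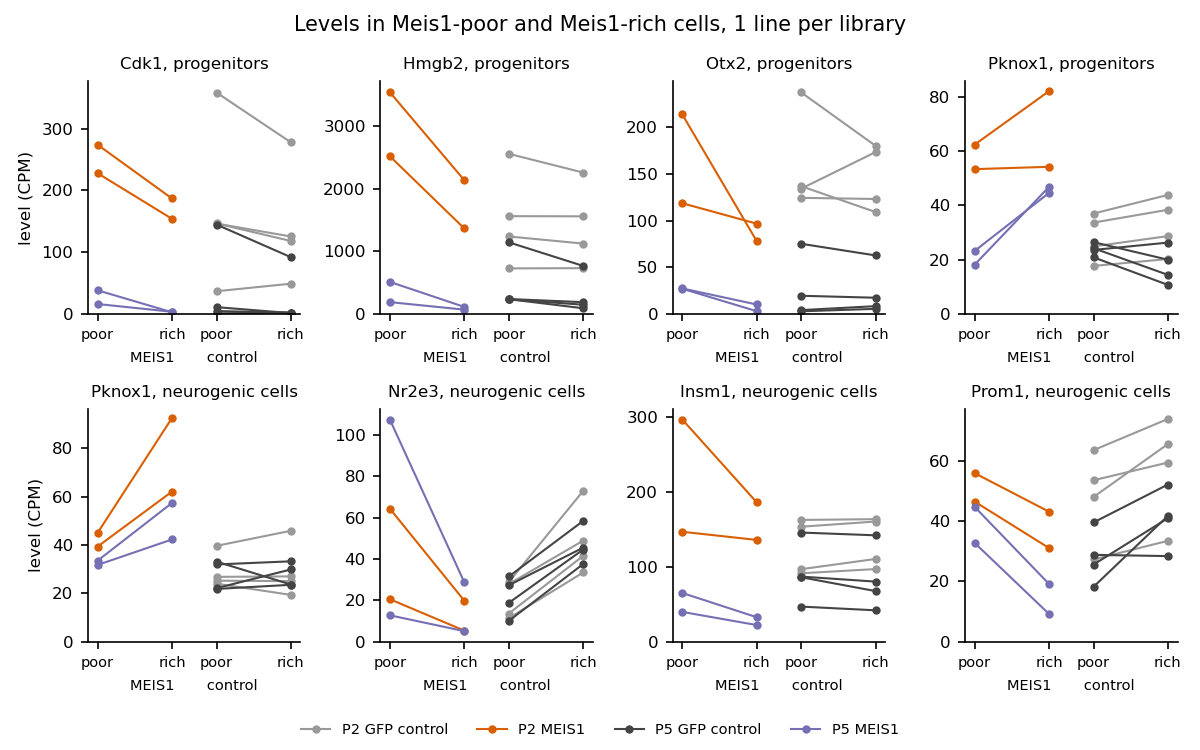
Levels (TMM-scaled CPM, linear axes from 0) of 4 genes in progenitors (top) and 4 in neurogenic cells (bottom; Pknox1 is in both), in the poor and rich cells of each library; each line is 1 library, MEIS1 on the left and GFP controls on the right of a panel. In the MEIS1 libraries Cdk1, Hmgb2 and Otx2 fall and Pknox1 rises in all 4, and Nr2e3 falls in all 4 where it rises in all 8 controls.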

How the data were processed

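Whole-number UMI counts per gene and cell, the authors' cell types and the percent of mitochondrial UMIs per cell were taken from the deposited tables; per the submitters' processing notes they were made with Cell Ranger (no version given) on mm10, with a locus added for GFP per the design text, and Seurat 5. Summed counts were equal to the deposited sums in all 79009 cells.

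Cells with at least 2000 UMIs were split by Meis1 share within library and cell type, ties at 0 going to the poor group. Counts were summed per library, cell type and group and fitted together for 12 libraries with edgeR 4.0.16 in R 4.3.3 (filterByExpr, TMM, quasi-likelihood test, two-sided, Benjamini-Hochberg, 8 residual degrees of freedom). The library was a block, since rich and poor cells come from the same library, so the pairing is given by the design. Contrasts were the mean split of both ages in MEIS1 libraries, in GFP libraries, and their differences. All of them used the same spread per gene, estimated over MEIS1 and GFP libraries together. Levels are TMM-scaled CPM; list and marker sums, Meis1 and GFP are plain CPM. For a fold change against a group at 0, the 0 was set to a floor of 3 counts over the group's libraries. The other count was taken as it stands, so such a fold is no confidence limit. Intervals and limits on shares of cells cover counting error only.

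Genes named per cell type were those called with the same sign in every MEIS1 library and a mean of at least 16 CPM, the 10 with the largest fold change in each direction; up to 5 in each direction for the difference; MEIS, PBX, PKNOX and retinal factors; and up to 4 called members of each list. The other genes of the lists, and Malat1, Adcy8, Erbb4, Hes6, Apoe, Top2a, Cdk1, Ccnb1, Dll1 and Abca1 among others, were picked with their values in view. Some genes that meet the rule are not reported here. The cells compared and the lists were chosen with earlier results of these data known. Fits were tested on simulated data with known changes. Doublets were not removed in the main analysis; Scrublet (scanpy 1.11.5) marked under 0.5% of cells in 4 of 12 libraries and so did not work there. Pairs of libraries shared at most 30 cell barcodes (0.637% of the smaller). The replicate numbers of the control libraries could not be matched with certainty between titles and cell names; they name libraries only. Alternatives covered DESeq2 1.42.0, scaling, filters, thinning, depth bins, other splits and leaving out each library.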

Additional observations from a re-analysis of the deposited data

Results flagged for a closer look

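In progenitors the split differed between MEIS1 and GFP libraries, by the test of the difference, for 346 genes. The most negative log2 differences that met the naming rule were Pbk (-4.73), Cdca3 (-4.70), Hist1h2bm (-4.25), Ska1 (-4.19) and Melk (-4.03), all genes of dividing cells. All 5 were at 0 in the rich P5 progenitors, so these fitted values depend on the prior count and are no bound. Positive differences included Maff (1.22), Tmem132b (1.20), Borcs5 (1.03) and Sh2d4b (0.99). With cells ranked by GFP, 7 genes differed between the treatments, and none of the genes named here was among them.

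The split differed between P5 and P2 MEIS1 libraries for 144 genes in progenitors, with fitted values of -8.78 for Pbk, -8.08 for Cdca3, -7.83 for Hist1h2bm, -7.32 for Ska1 and -6.84 for Melk, again against groups at 0. At P5 the poor progenitors held 17 cycling cells and the rich ones 2.

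In neurogenic cells 31 genes differed between the treatments and 57 between the ages. Nr2e3 (-2.91), Pdc (-2.02), Tulp1 (-1.84), the unnamed transcript Gm28376 (-1.66) and Prom1 (-1.46) were more negative in the MEIS1 libraries. Stmn4, a stathmin of neurons (1.17), Malat1 (0.53) and Gm42418, a transcript that overlaps ribosomal RNA (0.23), were more positive. The change in the percent of cells called cycling differed between the treatments by -15.9 points in progenitors and -2.77 points in neurogenic cells (exact permutation p = 0.0384), and in the thinned neurogenic cells by -4.46 points (exact permutation p = 0.206).

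3 control libraries stood far from the other 3 of their group by a gap test that flags about 1 in 20 groups by chance; 20 groups were looked at. They were P5 GFP replicate 1 (ratio of median UMIs of rich to poor progenitors, 0.88), P5 GFP replicate 4 (cycling neurogenic cells, rich minus poor by Meis1, 3.12 points) and P5 GFP replicate 2 (the same by GFP, 0.0 points).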

How the results depend on the processing

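Counts are given for MEIS1 split, GFP split, treatment difference and age difference, where they moved by over 1.5 times; the cause was not tested except where the setting has fewer cells, UMIs or libraries. In progenitors (908, 2008, 346 and 144 genes) DESeq2 called 519 for the first, 229 for the treatment and 68 for the age difference, and no filter on low counts 241 for the last. Thinning to 2000 UMIs gave 149, 193, 36 and 15, ranking within 5 depth bins 228 for the treatment difference, the ranking by GFP 313, 7 and 33 for the MEIS1 split and the 2 differences, the MEIS1 libraries alone 573, the P5 libraries alone 221, 336 and 120, and non-cycling cells 184, 54 and 4 for the MEIS1 split and the differences. Of the 908 genes DESeq2 also called 511, the fit without TMM 835 and that without the filter 858.

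In neurogenic cells (64, 835, 31 and 57) DESeq2 called 412 in the GFP split. Without TMM there were 168 and 70 for the MEIS1 split and the treatment difference, and without the filter 256, 214 and 261 for the MEIS1 split and both differences. Thinning gave 27, 118, 16 and 12, depth bins 103 for the treatment difference, at least 5000 UMIs 33 and a split at the median 36 for the MEIS1 split, the ranking by GFP 3, 178, 1 and 5, the MEIS1 libraries alone 131 for the age difference, the P2 libraries alone 471 and 106, and the P5 libraries alone 6 and 3.

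Without the replicate block, which ignores that rich and poor cells share a library, edgeR called 0 genes in all 4 progenitor comparisons (385, 514, 197 and 138 at an unadjusted p under 0.05) and 0, 1, 0 and 0 in neurogenic cells (325, 603, 285 and 313).

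Leaving out 1 library at a time gave 187 to 1011, 1199 to 2133, 93 to 451 and 23 to 194 genes in progenitors, the lowest without P5 MEIS1 replicate 2 except in the GFP split (P5 GFP replicate 3). In neurogenic cells it gave 3 to 183, 313 to 906, 6 to 69 and 5 to 125, the lowest without P2 MEIS1 replicate 1 except in the GFP split (P2 GFP replicate 1).

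Single genes changed sign in progenitors: Sept4 in thinned cells (-0.020) and at P5 (-0.016), Epha3 at P5 (-0.0022), Clspn (0.15), Prim1 (0.24) and Hes5 (0.15) at P2, Cdkn2d (0.18), Hist1h1b (0.23) and Mki67 (0.23) in non-cycling cells, and Cdkn2c (-1.30 to 0.037), Cdkn2d (-0.69 to 0.15) and Dll1 (-1.23 to 0.60) over the fits that leave out 1 library, the highest without P5 MEIS1 replicate 2. In thinned neurogenic cells Dtna (-0.65), Egr1 (-0.080) and Jak1 (-0.0013) did.

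Within depth bins the ratio of median UMIs of rich to poor MEIS1 progenitors was 0.994 and of genes 0.983. The same ratios in control neurogenic cells no longer passed, at 1.042 and 1.035 within depth bins, 1.051 and 1.040 with ties broken at random, and 1.021 and 1.043 at 5000 UMIs, where the mitochondrial percent of control progenitors came to differ by -0.057. Ranked by GFP, the cycling share of control cells changed by -18.7 points in progenitors and -2.31 in neurogenic cells. Genes with few UMIs per summed group, such as those at 0 at P5, are limited by depth and by the number of cells.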
